A study of Mus musculus and Homo sapiens with 12 samples.

Results

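The MYC and MAX network was followed as 10 genes, chosen by name: MYC, MYCN, MYCL, MAX, MXD1, MXD3, MXD4, MXI1, MNT and MGA. All 10 were found among the 55487 genes of the mouse count table and among the 78932 genes of the human one, and all 10 passed the filter on low counts in both. The study removed DDX21, a nucleolar RNA helicase that acts in ribosome biogenesis, from blood progenitors and sequenced their RNA. The mouse libraries came from LK (Lineage- Kit+) progenitors of the E13.5 fetal liver (E, embryonic day). WT embryos were Ddx21f/f, and cKO embryos were Vav-Cre; Ddx21f/f, in which the Vav promoter drives Cre in blood-forming and some endothelial cells. Both mouse groups carry the floxed alleles, and the labels name no Cre in the WT embryos, so the presence of Cre and the loss of Ddx21 cannot be told apart. The human libraries came from HSC-like cells made from H1 hESC, an established human embryonic stem cell line. Those cells received lentivirus for shNC-mCherry or shDDX21-mCherry and were sorted as CD34+ CD45+ CD43+ shRNA+ cells 2 days after transduction. Each of the 4 groups had 3 libraries, and the labels do not say that these came from separate embryos or cultures, so each p-value measures the spread between these libraries, which may be technical.

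MYC, MYCN and MYCL encode basic helix-loop-helix leucine zipper proteins that bind DNA only as heterodimers with MAX, preferentially at the E-box CACGTG, and activate genes of ribosome production, nucleotide synthesis and cell growth. The MXD proteins, MXI1 and MNT compete for MAX and bring SIN3 and histone deacetylases to the same sites, and MGA joins MAX to a polycomb complex with E2F6. In blood, MYC and MYCN are known to maintain progenitor growth and the balance between self-renewal and differentiation, and MXD1 is known to accompany terminal differentiation of granulocytes.

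Depth ran from 21116079 to 23898130 counts per mouse library and from 15289510 to 19798608 counts per human library. The targeted gene followed the labels. Ddx21 fell from 1424 ± 12.5 to 280.2 ± 3.62 counts-per-million (CPM; mean ± SD, n = 3) in the cKO libraries, and DDX21 fell by 2.78 on the log2 scale in the shDDX21 libraries. WT replicate 3 and cKO replicate 2 had negative slopes against the GC content of the genes, -0.159 and -0.182. These slopes are of the log2 deviation from the group mean, per 10 percentage points of GC. The other WT and cKO libraries had slopes between 0.0027 and 0.179. In cKO, replicates 1 (0.179) and 2 (-0.182) lay on opposite sides of replicate 3 (0.0027). Being relative to the group mean, a slope does not show which library of a group departs. Of the antigens that the mouse sort removed, Cd3e and Ly6g had at most 1 count in any library, and Itgam was at 3.27 CPM in WT. Hepatocyte markers summed to 1.39 to 1.76 CPM in WT and 28.6 to 32.1 CPM in cKO, with all 4 of those tested higher, and their part in the results was not tested. Kit was at 362 and 317 CPM in WT and cKO. CD34, PTPRC (the gene of CD45) and SPN (the gene of CD43) were each above 69 CPM in both human groups.

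**Figure D1:**
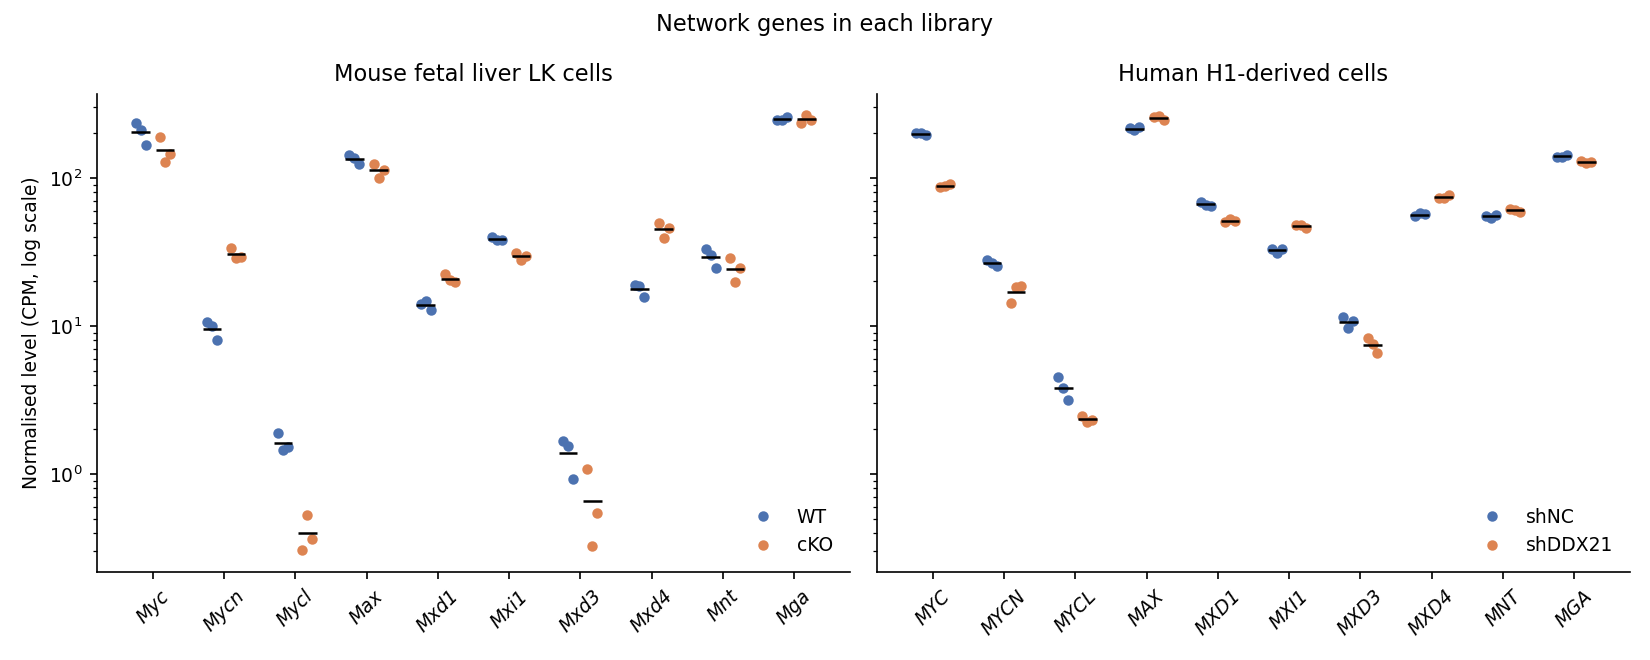
CPM (log axis) of each network gene in every library, with mouse WT and cKO in one panel and human shNC and shDDX21 in the other; points are libraries and bars are group means. Mycn and Mxd4 lie higher in all 3 cKO libraries, and MYC lies lower in all 3 shDDX21 libraries, than in any control library.

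In the mouse cells, Mycn, Mxd1 and Mxd4 rose and Mycl and Mxi1 fell, while Myc, the member with the highest level per exon length, did not pass the test. A gene is said to have risen or fallen where edgeR's quasi-likelihood test gave a Benjamini-Hochberg adjusted p under 0.05 over all 14918 genes tested. In these terms 3 members were higher (20.7% of all genes tested were) and 2 were lower (15.8% of all), and 36.5% of all genes were called in either direction. The median log2 change was -0.26 over the members and 0.000574 over all genes tested. The groups did not overlap for 5 of the 10 members, against 49% of all genes tested.

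Mycn encodes the MYC paralogue best known in embryonic tissue and in the stem cells of the blood. Its gene lies at chr12:12936093-12941914 on the minus strand (mm10). It stood at 10.7, 9.98 and 8.03 CPM in WT replicates 1 to 3, and at 33.8, 28.9 and 29.1 CPM in the cKO replicates. Every cKO library was above every WT library, and the mean rose 3.20-fold, from 9.56 ± 1.37 to 30.6 ± 2.79 CPM (log2 change 1.68, SE 0.12, adjusted p = 6.79e-05). Stem and multipotent progenitor markers, of which 9 of 10 rose, summed to 291 to 306 CPM in WT and 598 to 618 CPM in cKO, and their part in the change of Mycn was not tested. In such bulk samples, more cells of a type and more RNA per cell cannot be told apart.

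Mycl encodes the MYC paralogue known from dendritic cells, and had the lowest level per exon length of the network. The gene (chr4:122995652-123002485, plus strand) was covered by 42, 30 and 33 reads in WT replicates 1 to 3, and by 7, 13 and 8 reads in the cKO replicates. The WT libraries were all above the cKO libraries, and the level fell to 24.5% of WT (log2 change -2.01, SE 0.26, adjusted p = 0.000941). Dendritic cell markers, of which 2 of 5 tested fell, summed to 109 to 118 CPM in WT and 92.9 to 95.4 CPM in cKO. One of them, Siglech, was counted 31, 41 and 25 times in WT and 5, 4 and 3 times in cKO. Siglech had the largest change of those tested (log2 change -3.09), and Zbtb46 fell by less (-0.43). Cst3 (-0.36), Itgax (-0.11) and Flt3 (-0.018) did not pass the test. Of 6 monocyte and macrophage markers tested, 5 fell and Cd68 rose (log2 change 0.33, adjusted p = 0.0334). The markers of this list summed to 99.7 to 106 CPM in WT and 41.7 to 43.3 CPM in cKO. The part of these cells in the change of Mycl was not tested.

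Myc (chr15:61985391-61990374, plus strand) is the family member most widely expressed in dividing progenitors, and it had the highest level per exon length of the network in both mouse groups. It measured 235, 209.7 and 167 CPM in WT and 188, 129 and 146 CPM in cKO. The groups overlapped, since WT replicate 3 lay below cKO replicate 1. The mean of 204 ± 34.4 against 154 ± 30.3 CPM gave a log2 change of -0.40 (SE 0.16, adjusted p = 0.0940). Both libraries with a negative GC slope were the lowest of their group for Myc. With an offset for GC content the adjusted p was 0.0208, and without WT replicate 3 and cKO replicate 2 it was 0.0181. It was 0.0334 without WT replicate 3 alone and 0.0155 without cKO replicate 1 alone. Of 16 alternative analyses, 7 called Myc and 9 did not, and leaving out single libraries gave adjusted p up to 0.266. The call for Myc thus depends on the libraries and the settings of the analysis. The long noncoding RNA gene Pvt1, which neighbours Myc, rose from 17.9 ± 0.98 to 36.2 ± 1.05 CPM (log2 change 1.02, SE 0.068, adjusted p = 4.34e-05).

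Max (chr12:76937269-76962201, minus strand) encodes the partner that MYC proteins need to bind DNA. It measured 143, 137 and 125 CPM in WT and 125, 100.01 and 113 CPM in cKO, with an overlap between the groups. The log2 change of -0.26 (SE 0.088) had an adjusted p of 0.0532, and 10 of 16 alternative analyses gave one under the threshold, among them that without WT replicate 3 (0.0343) and that without cKO replicate 1 (0.0140).

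The genes of the repressor side moved in different directions. Mxd4 (chr5:34173883-34187720, minus strand), whose product is a MAX-binding repressor known from differentiating cells, measured 19.0, 18.6 and 15.7 CPM in WT and 49.6, 39.0 and 46.0 CPM in cKO. Each cKO library lay above each WT library, and the log2 change was 1.34 (SE 0.11, adjusted p = 0.000137). Mxd1 (chr6:86647042-86669161, minus strand), which encodes the repressor first described as MAD, stood at 14.1, 14.8 and 12.8 CPM in WT and 22.3, 20.5 and 19.7 CPM in cKO. It rose from a mean of 13.9 ± 1.03 to 20.9 ± 1.34 CPM, again without overlap (log2 change 0.59, SE 0.089, adjusted p = 0.00209). The neutrophil markers, whose cells MXD1 is known from, all fell (5 of 5), and their part was not tested. Mxi1 (chr19:53310518-53375810, plus strand), a related repressor gene, stood at 39.6, 38.4 and 38.2 CPM in WT and 31.0, 27.8 and 29.8 CPM in cKO. It fell from 38.7 ± 0.78 to 29.5 ± 1.64 CPM with no overlap (log2 change -0.39, SE 0.063, adjusted p = 0.00282).

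Of the remaining repressors, Mxd3 is the member linked with proliferating cells. The counts of Mxd3 were 37, 32 and 20 (WT) and 25, 8 and 12 (cKO), with overlapping groups, in a gene that shares 105 exon bases with Prelid1 on the opposite strand. They gave a log2 change of -1.09 (SE 0.43, adjusted p = 0.0850). Without cKO replicate 1 the change was -1.66 (adjusted p = 0.0154). The S phase markers summed to 3866 to 4193 CPM in WT and 2985 to 3250 CPM in cKO, and their part in the Mxd3 values was not tested. Mnt, whose product is the broadly expressed repressor, gave a log2 change of -0.27 (SE 0.15, adjusted p = 0.216) and had overlapping groups. With an offset for GC content, the value for Mnt was -0.0076 (adjusted p = 0.936). Mga, whose large protein also carries a T-box domain, measured 250.2 ± 5.25 CPM in WT and 249.1 ± 14.8 CPM in cKO, a log2 change of -0.01 (SE 0.049, adjusted p = 0.930).

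**Figure D2:**
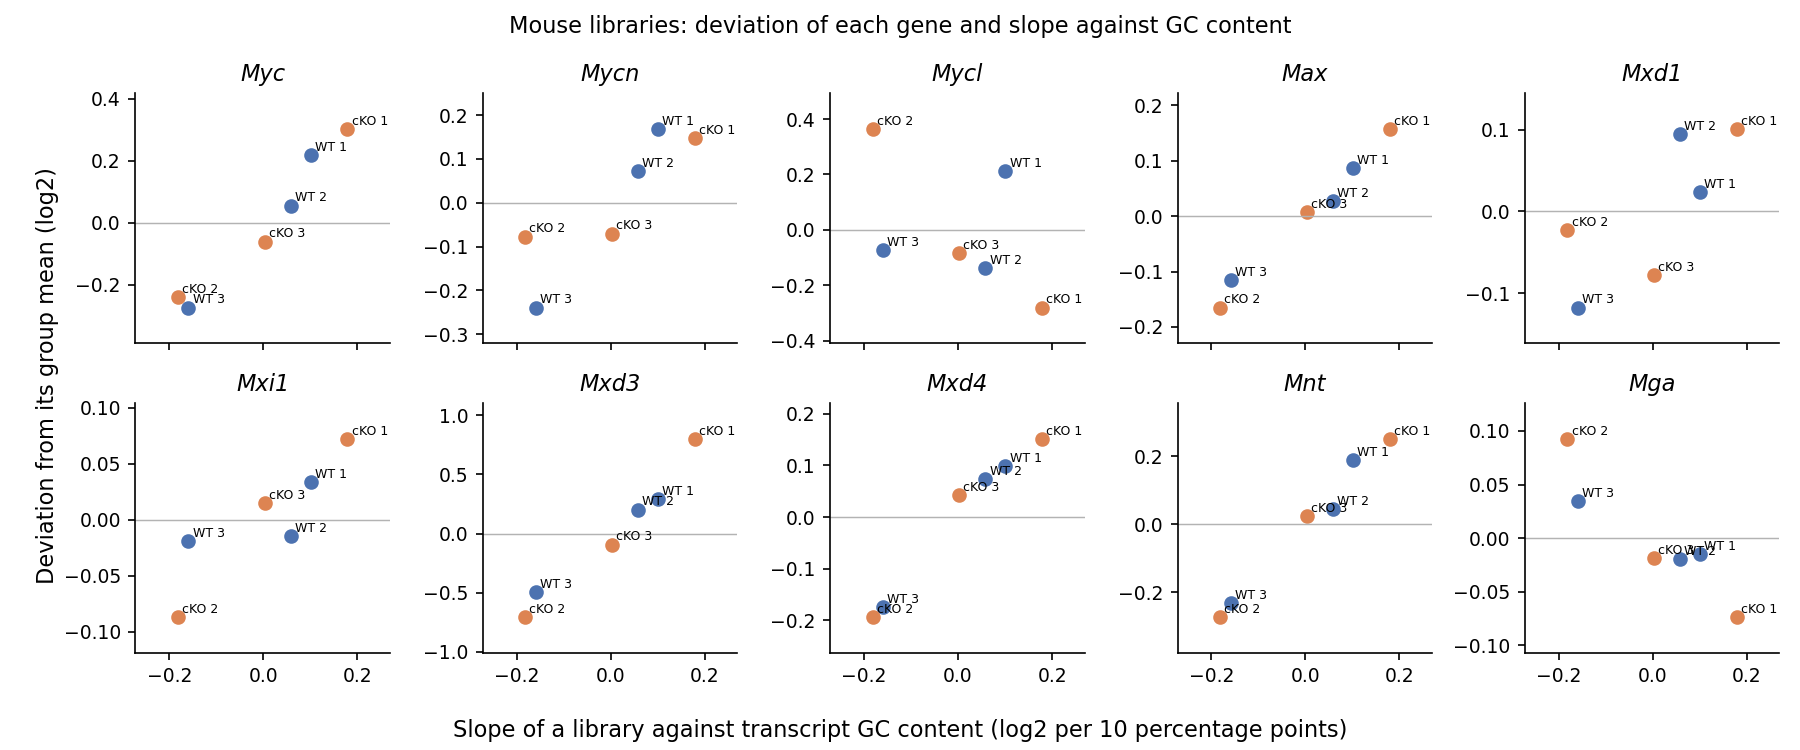
The deviation of each network gene from its group mean in each mouse library (log2 CPM), set beside the GC slope of that library (log2 per 10 percentage points of GC). The deviations of Myc run from -0.27 to 0.22 in WT and from -0.24 to 0.30 in cKO and are lowest in WT replicate 3 and cKO replicate 2, the libraries with negative slopes. Mycn, Max, Mxd3, Mxd4, Mxi1 and Mnt have the same order within each group, while Mga is highest in those 2 libraries.

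The start of the mouse genes was read in RefSeq's GRCm38.p6 windows, 250 bases before to 50 bases after the start site, to show the letters at the start sites of members. A window was held for 9 member genes, in 11 windows, with several for Mxi1 and none for Myc. Shares over all windows are given per window, and those of the members per gene. The E-box CACGTG lay in 7.15% of all 32851 windows and in those of Mxd4, Mnt and Max, which is 3 of the 9 member genes. Of these 3 genes, Mxd4 was called in the mouse cells. E2F motifs (TTTCCCGC, TTTGGCGC, TTTCGCGC or TTTGCCGC, either strand) lay in 2.26% of all windows and, among the members, in that of Mycn, with overlapping matches at -183 and -179 and another at -168, counted from the start site. The looser E-box CANNTG lay in 72.3% of all windows and in those of 7 of the 9 member genes. The windows of Mycn (chr12:12941787-12942086, minus strand) and Mxd4 (chr5:34187661-34187960, minus strand) are shown whole because these genes rose most, and 40 bases around the match are shown for Mnt (chr11:74830784-74830823, plus strand) and Max (chr12:76962229-76962268, minus strand). The window of Mxd1, which also rose, had no match to any of these motifs and is not shown. Capitals mark the matches to CACGTG and the E2F motifs, and a match describes the letters only.
Mycn: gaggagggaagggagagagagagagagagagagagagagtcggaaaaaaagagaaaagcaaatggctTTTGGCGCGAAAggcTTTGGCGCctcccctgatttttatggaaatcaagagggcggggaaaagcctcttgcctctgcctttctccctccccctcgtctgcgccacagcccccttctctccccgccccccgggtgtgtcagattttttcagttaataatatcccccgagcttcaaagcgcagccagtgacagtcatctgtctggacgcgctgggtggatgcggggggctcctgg
Mxd4: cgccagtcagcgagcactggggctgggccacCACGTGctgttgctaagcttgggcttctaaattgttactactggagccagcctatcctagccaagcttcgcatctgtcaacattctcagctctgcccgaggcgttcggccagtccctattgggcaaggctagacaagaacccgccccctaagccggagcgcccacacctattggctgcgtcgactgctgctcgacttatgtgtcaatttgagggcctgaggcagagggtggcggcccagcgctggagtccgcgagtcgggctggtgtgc
Mnt: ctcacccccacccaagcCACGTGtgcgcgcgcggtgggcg
Max: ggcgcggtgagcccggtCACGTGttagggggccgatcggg

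In the human cells MYC had the largest change of the network, all 3 members of the MYC family fell, and MAX, MXD4, MXI1 and MNT rose. All 10 members passed the test, with 4 higher (25.3% of the 20188 genes tested were) and 6 lower (27.4% of them), in libraries where 52.7% of all genes were called. The median log2 change was -0.25 over the members and 0.00519 over all genes tested. The groups did not overlap for any of the 10 members, which also held for 57.4% of all genes tested. The spread between these libraries was small: the common biological coefficient of variation was 2.23%, against 10.5% in the mouse libraries.

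MYC (chr8:127735434-127742951, plus strand, hg38) measured 202, 200.9 and 196 CPM in shNC and 86.9, 88.0 and 91.1 CPM in shDDX21. All shDDX21 libraries were below all shNC libraries, and the mean fell from 199.6 ± 3.25 to 88.6 ± 2.18 CPM, which is 44.4% of shNC (log2 change -1.17, SE 0.032, adjusted p = 2.49e-44). PVT1 next to it rose by 0.18 on the log2 scale (SE 0.042, adjusted p = 0.000183), from 63.4 to 71.9 CPM.

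MYCN measured 28.1, 26.8 and 25.3 CPM in shNC and 14.2, 18.3 and 18.7 CPM in shDDX21. The groups were apart, with shDDX21 replicate 1 the lowest, and the log2 change was -0.65 (SE 0.078, adjusted p = 3.05e-11). The gene shares 813 exon bases (29.5% of its exon length) with MYCNOS on the opposite strand. MYCNOS, at 3.27 CPM in shNC and 2.48 CPM in shDDX21, did not pass the test (log2 change -0.41, adjusted p = 0.0732), and whether reads were counted by strand is not given in the sources used here. The 3 pluripotent stem cell markers that carry a name in the human table summed to 241 to 250.1 CPM in shNC and 282 to 294 CPM in shDDX21, and their part was not tested. Of these, LIN28A rose from 157 to 209 CPM, ZFP42 fell from 11.1 to 4.71 CPM and DPPA4 did not pass the test (75.7 and 73.9 CPM), so the higher sum comes from LIN28A. MYCL measured 4.50, 3.79 and 3.15 CPM in shNC and 2.46, 2.25 and 2.33 CPM in shDDX21. It too was lower in every shDDX21 library (log2 change -0.70, SE 0.19, adjusted p = 0.00142).

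MAX measured 218, 209.5 and 219 CPM in shNC and 257, 263 and 248 CPM in shDDX21. It rose in all 3 shDDX21 libraries relative to shNC (log2 change 0.24, SE 0.027, adjusted p = 2.02e-12), so MYC and its partner moved in opposite directions. MAX shares 822 exon bases (13.1%) with FNTB on the opposite strand.

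Among the human repressors, MXI1 had the largest change. It measured 33.3, 31.0 and 33.3 CPM in shNC and 48.0, 48.3 and 45.7 CPM in shDDX21 (log2 change 0.54, SE 0.054, adjusted p = 5.54e-14), so all shDDX21 libraries were above shNC. MXD4 was at 55.2, 57.8 and 57.0 CPM in shNC and at 72.8, 73.0 and 76.9 CPM in shDDX21. It rose from 56.7 ± 1.32 to 74.2 ± 2.31 CPM (log2 change 0.39, SE 0.043, adjusted p = 1.29e-12). These rises had the opposite sign to the change of MXD1, which fell from 66.4 ± 2.18 to 51.4 ± 1.49 CPM (log2 change -0.37, SE 0.045, adjusted p = 4.34e-11). The 2 neutrophil markers named in the human table summed to 158 to 171 CPM in shNC and 30.6 to 34.6 CPM in shDDX21, and their part in the change of MXD1 was not tested.

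MXD3 fell from 10.7 ± 0.88 to 7.48 ± 0.89 CPM (log2 change -0.51, SE 0.11, adjusted p = 7.00e-05), and all 10 S phase and all 9 G2/M markers fell beside it. MXD3 shares exon bases with its neighbours, 1148 of them with PRELID1 and 926 with RAB24, so its counts are uncertain. MNT gave a log2 change of 0.13 (SE 0.045, adjusted p = 0.0105) and MGA one of -0.12 (SE 0.032, adjusted p = 0.000558). Neither of these small changes held under every alternative: MNT had an adjusted p of 0.0517 with total counts as the scale, and MGA one of 0.138 with upper-quartile factors.

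**Figure D3:**
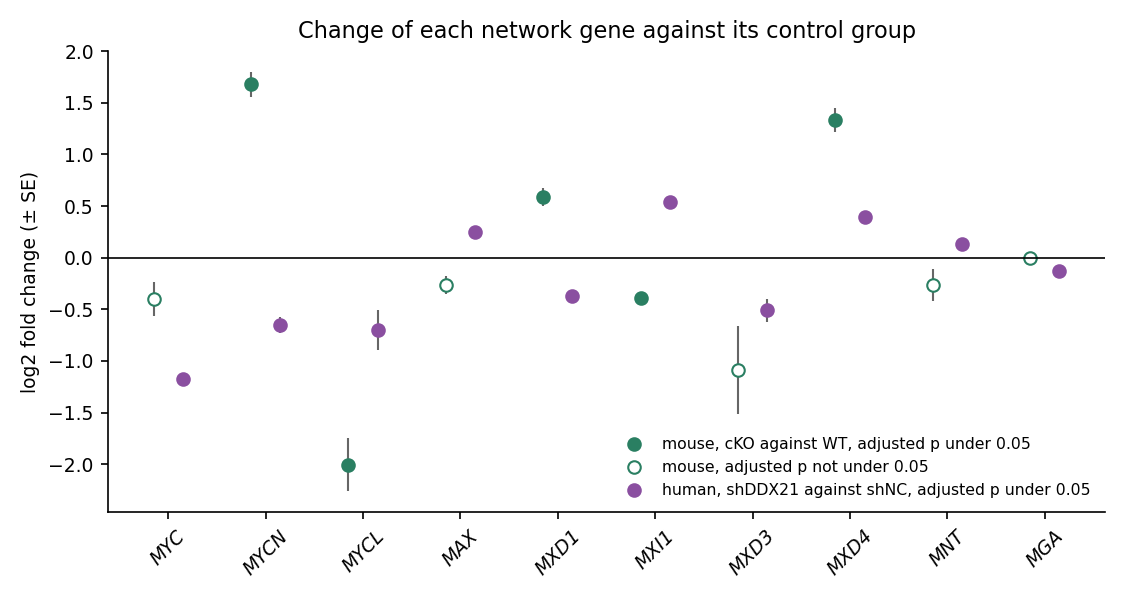
Log2 change of each network gene with its standard error, in mouse (cKO against WT) and human (shDDX21 against shNC). Filled points passed the test; of the 5 genes called in both, MYCN, MXD1 and MXI1 have opposite signs in the mouse and human experiments, while MXD4 is above 0 and MYCL below 0 in both.

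The mouse and human changes were compared by an interaction term in a fit over all 12 libraries, in which 56.2% of 10313 genes had a difference. Of the members, 7 had one. MXD4 rose in both experiments and MYCL fell in both, while MYCN and MXD1 rose in mouse and fell in human and MXI1 fell in mouse and rose in human. The largest difference was that of MYCN, 2.33 (mouse minus human, log2, SE 0.17, adjusted p = 5.04e-07). MYC differed by 0.77 (SE 0.19, adjusted p = 0.00419), with the smaller change in the mouse cells. MXD3 (-0.58, adjusted p = 0.245), MNT (-0.40, adjusted p = 0.0634) and MGA (0.12, adjusted p = 0.104) did not pass the test of the difference. Species, cell source and the way DDX21 was removed differ together here and cannot be told apart.

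Levels were compared between members per exon length, as RPKM (the CPM divided by exon length in kilobases), within a group. In WT the order was MYC at 75.0 ± 12.7, MAX at 37.5 ± 2.66 and MGA at 16.3 ± 0.34 RPKM. Behind them came MNT and MXI1, whose libraries overlapped, then MYCN, then MXD4 and MXD1, which overlapped, and last MXD3 and MYCL, which overlapped as well. In cKO, MYCN moved from the sixth place to the fourth, at 9.29 ± 0.85 RPKM, above MXD4, MNT and MXI1. In shNC, MAX at 34.5 ± 0.87 and MYC at 32.7 ± 0.53 RPKM led the order, with MYCL last at 0.77. In shDDX21, MAX at 40.9 RPKM stood 2.82-fold above MYC at 14.5 ± 0.36. RPKM values are not compared between species, because the deposited exon length of Myc is 2717 bases in mouse and that of MYC is 6109 in human.

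**Figure D4:**
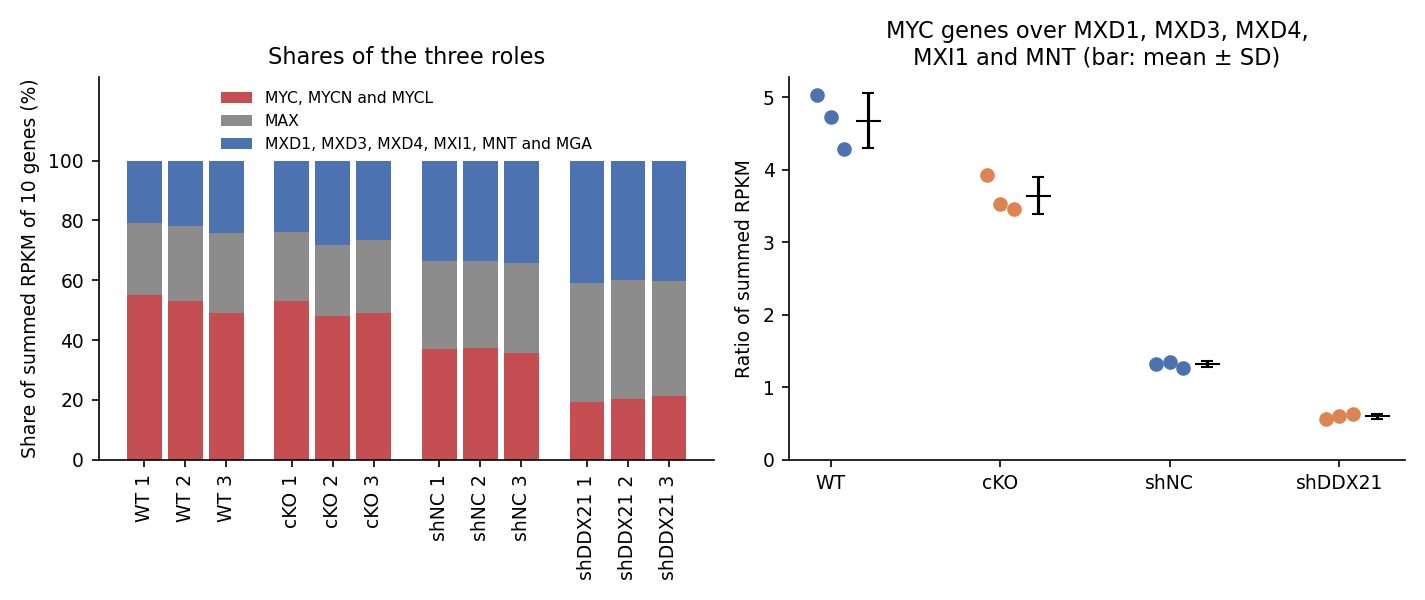
Left, the share (percent) of the network's summed RPKM that each role takes in every library; right, the ratio of the summed MYC family to the summed MXD1, MXD3, MXD4, MXI1 and MNT. The MYC family holds 36.8% in shNC and 20.4% in shDDX21, while its shares overlap between WT and cKO.

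The balance between the MYC family and the MXD, MXI1 and MNT repressors was described as the ratio of their summed RPKM. It was 5.03, 4.72 and 4.28 in WT and 3.93, 3.52 and 3.46 in cKO, so the cKO libraries were all lower. It was 1.32 ± 0.039 in shNC and 0.598 ± 0.035 in shDDX21, so the shDDX21 libraries were all lower. Whether a ratio lies above or below 1 depends on the deposited exon lengths, such as the 6109 bases of human MYC. It is therefore not read as the MYC family being above or below the 5 repressor genes. No test is given for these sums, which combine members that were tested singly. The MYC family's makeup also shifted: Mycn held 3.71% of its RPKM in WT and 14.2% in cKO, and MYCN 22.5% in shNC and 29.2% in shDDX21. Mxd4 held 12.6% of the RPKM of the 5 repressors in WT and 29.2% in cKO.

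The members were set beside 8 lists of genes of the pathway. The MYC-induced list, mainly genes of ribosome production and replication, had 18 lower and 5 higher of 57 tested genes in mouse (40.4% called, median -0.15). In human it had 44 lower and 1 higher of 56 (80.4% called, median -0.33). The share called over all genes was 36.5% and 52.7%. The genes of smallest p in mouse, Utp20 and Sord, rose there by 0.50 and 0.35 on the log2 scale. In human, UTP20 fell by 0.85 and SORD rose by 0.32. Mcm4, a subunit of the replicative helicase, fell in both, by 0.27 and 0.89 on the log2 scale. The glycolytic enzyme gene HK2 fell by 1.15 in human and was higher by 0.19 in mouse. Of 15 textbook MYC targets, 6 fell and 2 rose in mouse (53.3% called), and 13 fell in human (86.7% called). TFRC, the transferrin receptor gene, fell by 0.81 in mouse and 0.78 in human, whereas Ccnd2 (1.15), a cyclin gene, and Tert (1.72), the telomerase gene, rose in mouse. The MYC-repressed list had 3 higher and 2 lower of 9 in mouse (55.6% called) and 4 higher and 3 lower in human (77.8% called). In mouse the list was led by the cell cycle inhibitor gene Cdkn1a (log2 change 5.81, from 5.08 to 284 CPM). Cdkn1a is also a p53 target, and the 9 named p53 targets all rose in mouse. In human, CDKN1A rose by 0.59 on the log2 scale, and 8 of the 9 p53 targets tested rose. The part of MYC or p53 in the change of this gene was not tested.

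MLX is an alternative partner for MNT and some MXD proteins, and its own targets include TXNIP, which restrains glucose uptake. Of the MLX list, 2 of 4 tested genes rose in mouse (50% called, median 0.48). In human, 3 rose and 1 fell of 4 (100% called, median 0.48). TXNIP rose in both, by 0.93 and 0.82 on the log2 scale. Activating cofactors of MYC had 6 lower of 13 in mouse (46.2% called, median -0.21). In human they had 11 lower and 1 higher (92.3% called, median -0.34). Among them were the chromatin remodeller gene Ep400 (-0.33 in mouse) and the acetyltransferase gene CREBBP (-0.48 in human). Corepressors of the MXD group had 2 lower and 1 higher of 8 in mouse (37.5% called, near the 36.5% of all genes) and 5 lower and 1 higher in human (75% called, against 52.7% of all genes), including HDAC1 (-0.58). Partners of MGA had 6 lower and 1 higher of 10 in mouse (70% called) and 4 lower and 1 higher in human (50% called, near the 52.7% of all genes). In human, TFDP1, a dimer partner of E2F proteins, fell from 114 to 57.2 CPM. Of 12 genes of MYC protein turnover and stability, 3 rose and 3 fell in mouse (50% called) and 1 rose and 6 fell in human (58.3% called, near the share of all genes). PIM1, a kinase gene, rose in mouse (0.70) and fell in human (-0.79), which was not tested as a difference between experiments.

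**Figure D5:**
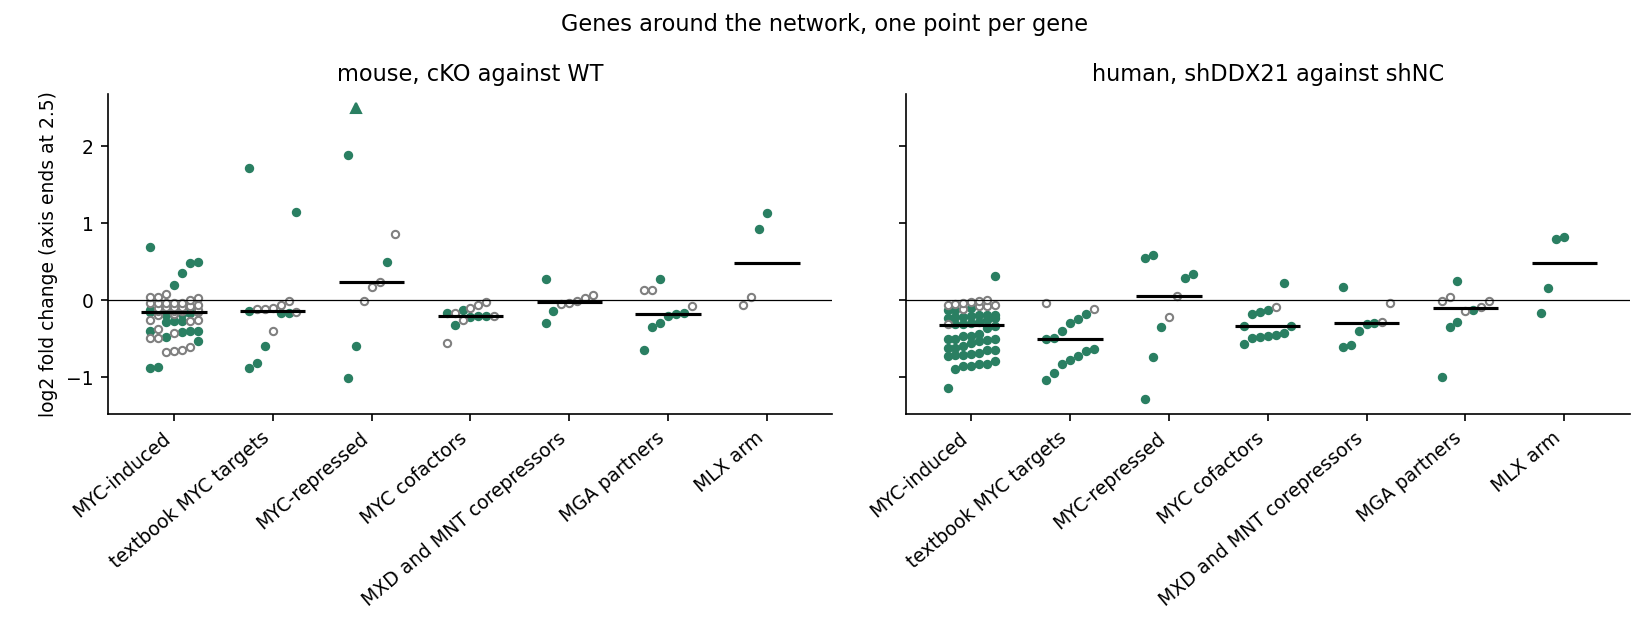
Log2 change of every tested gene of 7 of the 8 lists (the turnover list is not drawn) in mouse and human; filled points passed the test and bars are medians. The MYC-induced list has a median of -0.15 in mouse and -0.33 in human; the triangle at the edge of the mouse panel is Cdkn1a at 5.81, beyond the axis.

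The genes most like a member were sought over 8100 genes and 12 libraries, as the smallest root mean square difference of log2 CPM (0.5 added). Each gene was first centred on the mean of the control libraries of its experiment, so the likeness is in change and not in level. Genes picked in this way share the direction of a member's larger changes by selection. The genes nearest MYC were EZR (0.0556), H2AZ2 (0.0782) and BEND3 (0.0934). Nearest MYCN were LACC1 (0.127), ITGB2 (0.139) and BTG2 (0.152). Nearest MXI1 were SHC1 (0.0544), TANGO2 (0.0590) and COX7A2L (0.0715).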

How the data were processed

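The libraries were polyA RNA-seq. Reads were processed with STAR, featureCounts and DESeq2 on mm10 and hg38, per the submitters' processing notes; their versions, settings and strand handling are not given in the sources used here. The raw counts per gene deposited by the authors were tested. The authors also deposited a normalized signal (each count divided by 1 constant per library), which supplied gene symbols, and log2 values relative to the control mean, which were not used. GENCODE M21 names completed the mouse symbols.

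Genes were filtered with filterByExpr, scaled by TMM and fitted with edgeR 4.0.16 (quasi-likelihood, R 4.3.3), each experiment separately, with Benjamini-Hochberg adjustment over all genes tested and a threshold of 0.05. CPM are the same scaled counts and RPKM divide them by the deposited exon length. Low counts limit MYCL and mouse Mxd3. The difference between experiments was an interaction term over 12 libraries. The scripts were tested on simulated data.

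The 10 members and all lists were chosen with earlier results of these data known. Named genes were the members, DDX21, Pvt1 and overlapping genes. From each list, some but not all of the up to 3 called genes of smallest p were named. Also named were the 3 genes nearest to MYC, MYCN and MXI1, with a mean of at least 5 CPM. Genes named beyond these, such as markers, were chosen after their values were seen. Alternatives were other scalings and filters, a replicate block, DESeq2 1.42.0, each library left out and, added after seeing the data, GC-content and exon-length offsets and removal of 2 libraries.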

Additional observations from a re-analysis of the deposited data

Results flagged for a closer look

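For 7 members the change after DDX21 loss differed between the mouse and the human experiment, by the interaction term of edgeR's quasi-likelihood fit over all 12 libraries (Benjamini-Hochberg adjusted p under 0.05). The differences are mouse minus human on the log2 scale. MYCN differed by 2.33, MXD1 by 0.96, MXD4 by 0.95 and MYC by 0.77, with the mouse change above the human one. MYCL differed by -1.31, MXI1 by -0.93 and MAX by -0.51, with the mouse change below the human one. Of all genes tested, 56.2% differed. Species, cell source and the way DDX21 was removed cannot be told apart.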

How the results depend on the processing

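The 3 mouse members called higher remained 3 in number in all 16 alternatives, and the human counts stayed at 3 to 4 higher and 5 to 6 lower over 14. The number of mouse members called lower, 2 as reported, depended most on the processing. It was 4 with no filter on low counts, 4 with DESeq2, 4 with the replicate block, 4 without WT replicate 3 and cKO replicate 2 together and 5 with the GC-content offset. It was 1 when at least 10 counts were asked of every library, since Mycl and Mxd3 were then not tested. Leaving out single libraries gave 2 to 5, with 4 without WT replicate 3 and 5 without cKO replicate 1. Where it was 4, Myc and Max were called beside Mycl and Mxi1, and where it was 5, Mxd3 was called too. It was 3, with Max but not Myc added, under RLE size factors, upper-quartile factors and the exon-length offset. The cause was not tested. The log2 change of mouse Mga, -0.0064 as reported, turned to 0.020 with upper-quartile factors, 0.059 with total counts, 0.0083 with the stricter filter and 0.0062, 0.041 and 0.0032 without WT replicate 3, cKO replicate 1 and cKO replicate 3; leaving out single libraries gave -0.041 to 0.041. Same-numbered mouse libraries correlated at 0.738, -0.5425 and 0.0958 in their deviations from the group means, and WT replicate 3 with cKO replicate 2 at 0.797. Same-numbered human libraries correlated at -0.0269, 0.0051 and -0.0115. Deviations within a group of 3 depend on one another, so these values cannot show whether replicate numbers pair the samples. With the replicate block, the adjusted p of mouse Myc was 0.0226 and that of Max 0.0322. Human MNT had an adjusted p of 0.0655 without shNC replicate 2 and 0.0527 without shDDX21 replicate 1, and human MGA 0.0528 with the exon-length offset. Depth limits Mycl and Mxd3 in mouse, at 7 to 42 counts per library.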
